A study of Rattus norvegicus with 12 samples.

Results

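The miR-23, miR-27 and miR-24 clusters are represented by 5 of the 375 miRNA assays on the TaqMan rodent card A: miR-23a, miR-23b, miR-27a, miR-27b and miR-24. The members were chosen by name, as the main-arm products of the paired genomic clusters, and not by a measured value. They were measured in 12 samples of the medial entorhinal cortex (MEC) of Long Evans rats. For 10 samples, the carbocyanine dye DiO was injected into the dentate gyrus on both sides on postnatal day 2, the MEC was dissociated on day 4 or 5, and fluorescent cells (stellate, n = 5) were separated by flow cytometry from non-fluorescent cells (non-stellate, n = 5). The other 2 samples were undissociated MEC from rats of day 23, for which no injection is described (tissue). Cells are called stellate because their dye was taken up where stellate cells send their axons, so the group is defined by projection and not by a marker, and the non-stellate group is a mixture of all remaining viable cells. A description field calls non-stellate 3 and 5 labelled, against their titles and their fluorescence, and they were kept as non-stellate.

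MicroRNAs are short RNAs that bring a silencing complex to messenger RNAs, mainly by pairing of the bases near their 5′ end, called the seed. In mammals a miR-23, a miR-27 and a miR-24 hairpin lie next to each other in the genome and can be cut from a common transcript, and an ancient duplication left an a copy and a b copy of the whole cluster. The clusters are known from blood vessel growth and from muscle and blood cell differentiation. In rodent brain cultures miR-23 is known as more abundant in astrocytes than in neurons. Among well-studied targets, miR-27 represses Pparg, a nuclear receptor of fat cell differentiation, and miR-24 represses Bcl2l11, which promotes cell death.

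The mature sequences are shown because the a and b assays have to tell near-identical molecules apart, while a single assay reads miR-24 from both clusters. All 5 names matched the RefSeq miRNA table (rat assembly GRCr8), and capitals mark the seed, bases 2 to 8.
miR-23a: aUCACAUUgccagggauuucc
miR-23b: aUCACAUUgccagggauuacc
miR-27a: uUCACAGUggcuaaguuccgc
miR-27b: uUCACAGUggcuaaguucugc
miR-24: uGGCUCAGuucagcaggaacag
Counted from the 5′ end, miR-23a and miR-23b differ by a single change, U19A, and miR-27a and miR-27b by C19U. Both changes lie outside the seed, so each a and b pair shares all 7 seed bases. The miR-23 and miR-27 seeds share their first 5 bases and 6 of 7 positions, although the full sequences differ at 10 of 21 positions. The miR-24 seed is unrelated to both.

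The a cluster holds miR-23a at chr19:40859778-40859798, miR-27a at chr19:40859614-40859634 and a miR-24 copy (Mir24-2) at chr19:40859481-40859502, all on the minus strand. The b cluster holds miR-23b at chr17:1819405-1819425, miR-27b at chr17:1819163-1819183 and the other miR-24 copy (Mir24-1) at chr17:1818672-1818693, also on the minus strand. From first to last hairpin base the clusters span 389 and 814 bases. The RefSeq gene table puts the b cluster within the bounds of the protein-coding genes Fancc and Aopep and shows Mir3074 overlapping it, whereas no other gene in that table overlaps the a cluster. The table gives gene bounds, so exon and intron were not told apart.

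The measured value was Ct, the PCR cycle at which a well crossed its fluorescence threshold. It is a log2 scale that falls as abundance rises, and an undetermined well is given as 40. Sorted samples had 203 to 260 determined assays and tissue had 292 and 302, and the median Ct over the 176 assays determined in every sample was 28.0 to 30.9 in sorted samples and 23.7 in both tissue samples. Non-stellate 5 and 3 had the fewest determined assays (203 and 216) and the highest medians (30.9 and 30.3). All 5 neuronal marker miRNAs of a marker list were determined in every sample, while the 2 oligodendrocyte markers were determined in 3 of 10 wells of stellate, 2 of 10 wells of non-stellate and all 4 wells of tissue. In such bulk samples fewer cells of a type and less RNA per cell cannot be told apart.

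**Figure D1:**
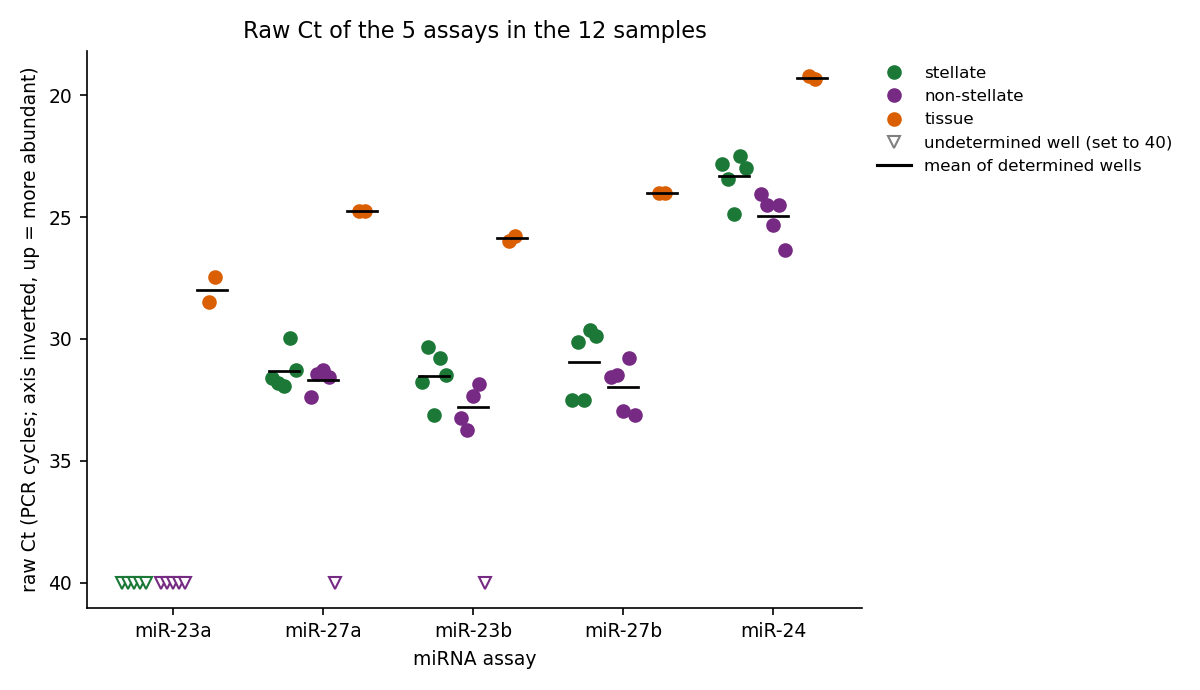
Raw Ct (vertical axis, PCR cycles, inverted so that up means more abundant) of the 5 assays, with 1 point per sample, colours for the 3 groups, open triangles for undetermined wells set to 40 and bars for the mean of determined wells. miR-24 has the lowest Ct in all groups, and miR-23a is determined in the 2 tissue samples and in none of the 10 sorted samples.

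miR-23a, which shares its seed with miR-23b, was undetermined in all 5 stellate and all 5 non-stellate samples. In tissue it was determined at Ct 28.5 and 27.4. The card had 64 assays undetermined in all 10 sorted samples, and 11 of these were determined in both tissue samples. Among the 11, miR-23a had the third lowest tissue Ct (mean 28.0), after miR-451, a red blood cell miRNA (26.8), and miR-369-3p (26.9). Of the 202 assays with a mean tissue Ct at or below that of miR-23a, only 3 were undetermined in all sorted samples and 163 were determined in all of them. All 38 other assays within 1 cycle of miR-23a in tissue were determined in at least 1 sorted sample, 17 of them in all 10. A level of miR-23a in sorted cells can therefore be given only as not determined, and since determined Ct values reached 38.2 on this card, no fold difference between tissue and sorted cells is stated. It was the single member that did not pass the filter for testing, which allowed at most 3 undetermined sorted samples.

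miR-27a, the neighbour of miR-23a in the a cluster, was determined in all stellate samples, at Ct 31.6, 31.8, 31.9, 29.96 and 31.3 in replicates 1 to 5. In non-stellate replicates 1 to 4 its Ct was 32.4, 31.5, 31.3 and 31.6, and in replicate 5 it was undetermined. The determined wells of both groups overlapped. In tissue its Ct was 24.7 in both samples, below every sorted sample.

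miR-23b, the first hairpin of the b cluster, had Ct 31.8, 30.3, 33.1, 30.8 and 31.5 in stellate replicates 1 to 5. Non-stellate replicates 1 to 4 gave 33.2, 33.8, 32.3 and 31.8, and replicate 5 was again undetermined. The non-stellate wells were on the late side of the stellate range but overlapped it. In tissue its Ct was 26.0 and 25.8, so that miR-23b was determined in 9 of the 10 sorted samples in which its near twin miR-23a was determined in none.

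miR-27b, which follows miR-23b in the b cluster, was determined in all samples. Its Ct was 32.5, 30.1, 32.5, 29.6 and 29.9 in stellate replicates 1 to 5 and 31.6, 31.5, 33.0, 30.8 and 33.1 in the non-stellate replicates. Stellate 1 and 3 stood with the non-stellate samples and the other stellate samples lay below them. In tissue its Ct was 24.0 in both samples.

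miR-24, read by a single assay for both clusters, had by far the lowest Ct of the members. Stellate replicates 1 to 5 gave 22.8, 23.4, 24.9, 22.5 and 22.98, non-stellate replicates gave 24.1, 24.5, 25.3, 24.5 and 26.4, and tissue gave 19.2 and 19.3. Only stellate 3 reached into the non-stellate range on this unscaled measure. By mean Ct, counted from the lowest, miR-24 ranked 8, 10 and 11 of the 375 assays in stellate cells, non-stellate cells and tissue. The ranks of miR-27b were 153, 148 and 96, those of miR-27a 160, 180 and 121, and those of miR-23b 167, 191 and 152. Ct also depends on how well each assay amplifies, so these ranks do not order the molecules by copy number.

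The first comparison asked whether a miRNA differed between stellate cells and the remaining MEC cells of the same age. After scaling by U6, a small nuclear RNA read in 4 wells per sample, none of the 4 members that passed the filter differed between the groups (limma, 5 against 5, adjusted over 222 tested assays). No assay of the 222 did (0%, with 16 assays at an unadjusted p under 0.05 in limma), so the absence of a call is not particular to the members. Differences are given as log2 levels, stellate minus non-stellate, and the median over all 222 assays was 0.46. miR-23b had the highest of the member differences, 1.91 ± 1.09 (SE, adjusted p = 0.629 in limma), with a 95% interval from -0.47 to 4.30. miR-27a followed at 1.21 ± 1.19 (adjusted p = 0.777 in limma, interval -1.38 to 3.80). miR-24 stood at 0.81 ± 0.52 (adjusted p = 0.667 in limma, interval -0.33 to 1.95) and miR-27b at 0.23 ± 0.80 (adjusted p = 0.96 in limma, interval -1.51 to 1.97). Without a replicate block all 4 intervals include 0, and none is narrow enough to show that the groups were alike. Of the marker lists, none had a called member in this comparison, with medians of 1.42 over 4 vascular, 0.97 over 5 neuronal and 0.64 over 4 tested blood and microglia markers, and the part of these cells in the member differences was not tested.

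By exact two-sided permutation of each member alone, unadjusted, p was 0.143 for miR-23b, 0.524 for miR-27a, 0.0952 for miR-24 and 0.786 for miR-27b, with 0.00794 the smallest p that 5 against 5 allows. No member had groups that did not overlap, and none of the 222 assays did on this scale (0%). After centring each sample on its median Ct over the 176 assays, the median difference of all assays was 0.07, and the members stood at 1.52 ± 1.14 for miR-23b, 0.81 ± 1.31 for miR-27a, 0.41 ± 0.28 for miR-24 and -0.17 ± 0.52 for miR-27b, again with overlapping groups, against 4.05% of all assays without overlap. The direction for miR-27b thus turned with the scaling, which moved all assays by the same amount and left its rank at 134 of 222.

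**Figure D2:**
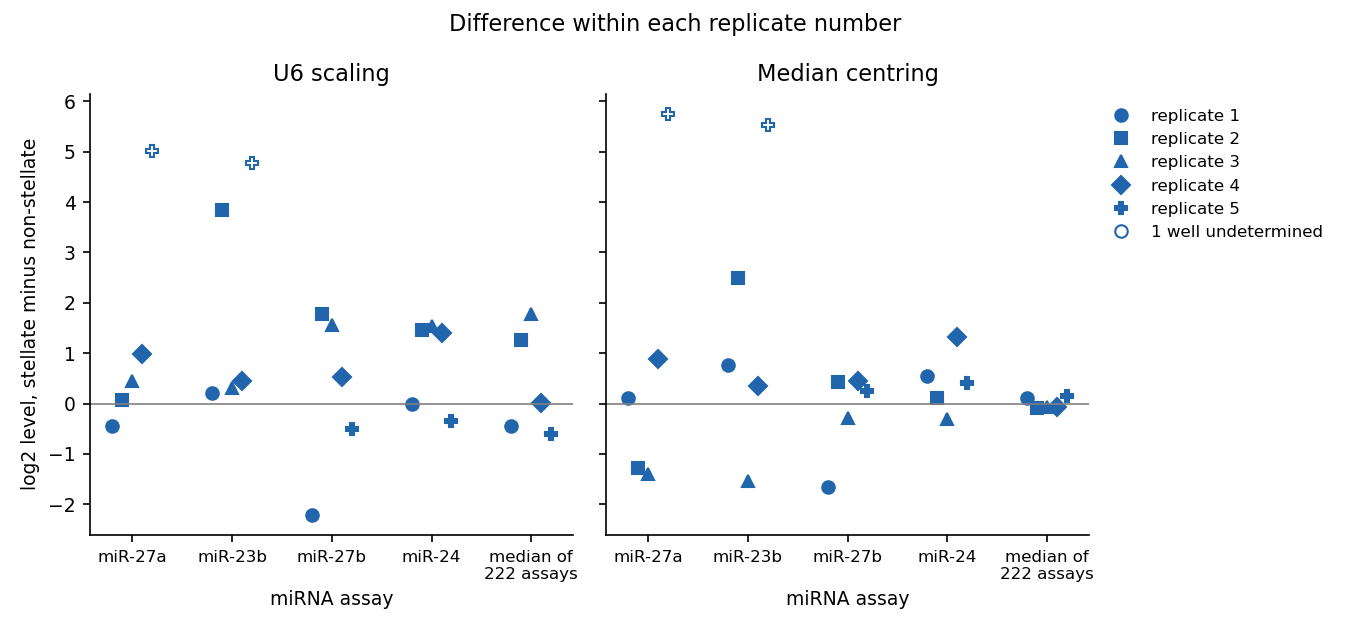
Stellate minus non-stellate log2 level (vertical axis) within each replicate number, after U6 scaling and after median centring, for the 4 tested members and the median of the 222 tested assays, with open symbols where the non-stellate well was undetermined. The highest miR-27a and miR-23b points, 5.01 and 4.78 after U6 scaling, both come from replicate 5, whose non-stellate wells were set to 40.

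Samples of the same number hold labelled and unlabelled cells of the same biological replicate, so the differences can also be read within replicates. For miR-23b, the U6-scaled differences of replicates 1 to 5 were 0.20, 3.84, 0.30, 0.44 and 4.78, all above 0. The last of these rests on an undetermined well, and the mean of the other 4 was 1.195 ± 1.77 (SD). After median centring the differences were 0.76, 2.49, -1.54, 0.36 and 5.54, so that replicate 3 turned below 0, and the mean of the 4 determined replicates was 0.51 ± 1.65 (SD). With undetermined wells as missing values and median centring, a pairing added after seeing the data, the fitted difference of miR-23b was 0.41. For miR-27a they were -0.46, 0.07, 0.45, 0.98 and 5.01, and without the undetermined well the mean was 0.26 ± 0.60 (SD, n = 4). Leaving out non-stellate 5 moved the fitted difference of miR-27a from 1.21 to -0.02 and that of miR-23b from 1.91 to 0.91. The value of miR-27a thus rests on that sample, and that of miR-23b rests on it in part.

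For miR-24 the U6-scaled differences were 1.46, 1.54 and 1.40 in replicates 2, 3 and 4, and -0.001 and -0.35 in replicates 1 and 5. After median centring those of replicates 1 to 5 were 0.56, 0.11, -0.31, 1.31 and 0.40, so which replicates lay above 0 depended on the scaling. In miR-27b the U6-scaled differences were -2.21, 1.77, 1.55, 0.53 and -0.50, with no common direction. Replicates 2 and 3, where both members were high, were also those in which the median assay was high, at 1.27 and 1.77 against -0.45, 0.02 and -0.60 in replicates 1, 4 and 5. With replicate as a block, the differences were the same and the standard errors were 0.84 for miR-23b, 0.83 for miR-27a, 0.61 for miR-24 and 0.72 for miR-27b. The adjusted p values were then 0.402, 0.682, 0.706 and 0.952 (limma), and no member was called. The 95% interval of miR-23b was 0.04 to 3.78 in that fit, which leaves out 0 (unadjusted p = 0.0457 in limma), whereas those of the other 3 members included it.

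Differences in Ct between members of the same sample need no reference RNA. Because assays amplify with different efficiency, such a difference is not a ratio of molecules, but its change between samples is free of the scaling. The Ct of miR-27a minus that of miR-27b, the a and b copies of the same seed, was 0.38 ± 1.14 (SD, n = 5) in stellate cells and -0.02 ± 1.18 (n = 4) in non-stellate cells. In single sorted samples it ran from -1.69 to 1.66, so no order of the copies held across samples. In tissue it was 0.74 and 0.73. The Ct of miR-23b minus that of miR-27b, neighbours in the b cluster, was 0.58 ± 0.90 in stellate cells, 1.10 ± 1.25 (n = 4) in non-stellate cells, and 1.96 and 1.74 in tissue. Without non-stellate 3 and 5, whose labels conflict, the non-stellate mean was 0.53 ± 0.50 (n = 3) for miR-27a minus miR-27b and 1.68 ± 0.59 (n = 3) for miR-23b minus miR-27b. The difference between the group means, stellate minus non-stellate, then turned from 0.40 to -0.15 cycles for the first pair and went from -0.53 to -1.10 for the second. For miR-23a minus miR-23b a value exists only in tissue, where miR-23a came 2.53 and 1.69 cycles later.

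Set against miR-24, the sorted samples and tissue separated. The Ct of miR-27a minus that of miR-24 was 5.96 to 8.79 in 9 sorted samples and 5.54 and 5.42 in tissue. For miR-27b it was 6.26 to 9.70 in 10 sorted samples and 4.80 and 4.69 in tissue, and for miR-23b 6.90 to 9.27 in 9 sorted samples and 6.76 and 6.43 in tissue. In all 3 cases tissue lay below every sorted sample, that is, the miR-23 and miR-27 members were nearer to miR-24 in tissue. For miR-23b the gap between the nearest samples was smaller than for the miR-27 members. These 3 cases share miR-24, and in the other 3 member pairs tissue and sorted samples overlapped. Of all 15400 pairs of assays determined in every sample, 56.9% did not overlap between tissue and sorted cells, so such separation was common on this card. Pairs with miR-27a or miR-23b are not in that set, because each had an undetermined well. Between stellate and non-stellate cells, none of the 6 member pairs separated, against 3.95% of all pairs.

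**Figure D3:**
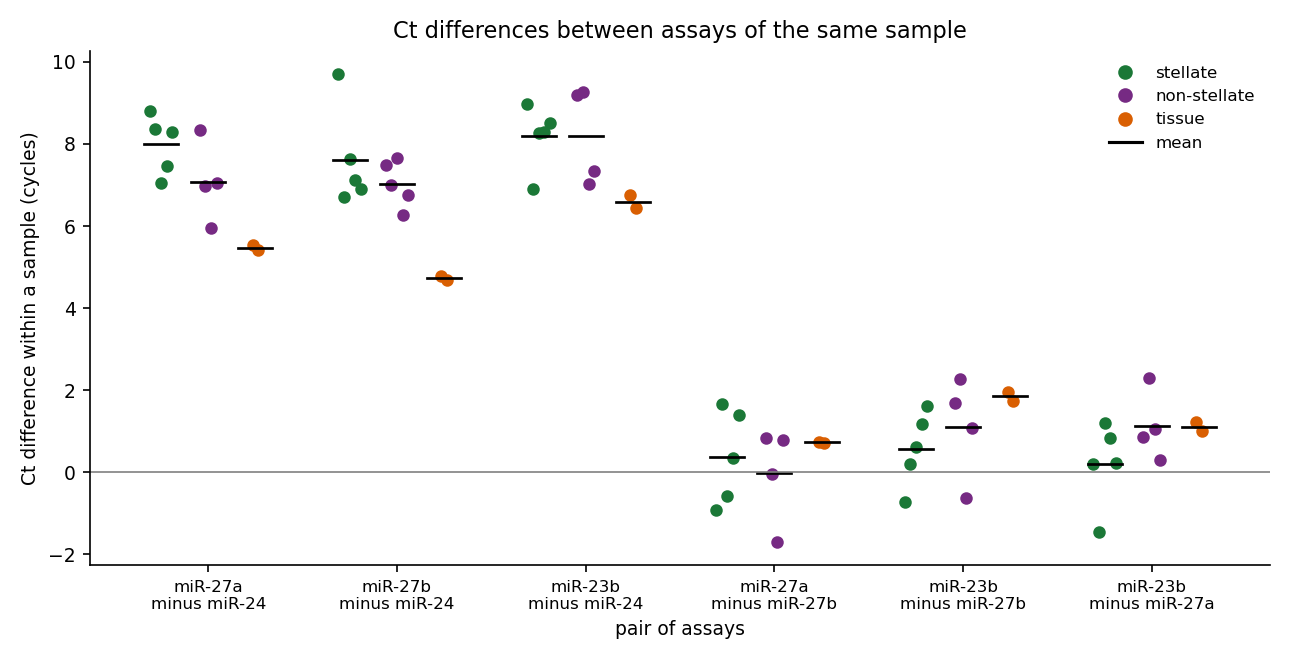
Ct of an assay minus Ct of another in the same sample (vertical axis, cycles) for the 6 pairs of members measured in sorted cells, with 1 point per sample and bars for group means. In the 3 pairs with miR-24, tissue lies below all sorted samples, from 4.69 to 6.76 cycles, while in the other 3 pairs the groups overlap.

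The assays most like each member were named by the SD, over sorted samples, of the within-sample Ct difference from it, a description over 10 samples (9 for miR-27a and miR-23b, without the undetermined well). For miR-24 these were miR-125a-5p (0.35 cycles), miR-191 (0.40) and miR-139-5p (0.44), and miR-27b ranked 118 of 175 at 0.95, where the median assay had 0.83. For miR-27b they were miR-181a (0.45), miR-130a (0.50) and miR-296-5p (0.52), with miR-24 at rank 77 of 175. Only assays determined in all 10 sorted samples were ranked, which left out miR-23a, miR-27a and miR-23b. Of the cluster neighbours, only miR-27b and miR-24 could thus be compared both ways. Neither was among the nearest assays of the other.

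For miR-27a the nearest were miR-188-5p (0.50), miR-744 (0.59) and miR-455 (0.62), with miR-24 at rank 44 and miR-27b at rank 89 of 176. For miR-23b they were miR-361 (0.70), miR-151-3p (0.74) and miR-665 (0.74), with miR-24 at rank 18 and miR-27b at rank 58. The spread between U6 wells of the same sample corresponds to an SD of 0.52 for a difference of 2 wells, and all 3 assays nearest to miR-24, 2 of those nearest to miR-27b and 1 of those nearest to miR-27a lay below it, while none of those nearest to miR-23b did. In sorted samples the mean U6 Ct was 16.5 to 20.2, lower than the Ct of every member in the same sample. The spread between wells at later Ct was not estimated. All assays of a sample share its RNA input and amplification.

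The second comparison set the tissue of day 23 beside the sorted cells of day 4 or 5. Age, dissociation and sorting, RNA amount and extraction kit all differed between these preparations and cannot be told apart. After U6 scaling all 4 tested members were higher in tissue (limma, 2 against 10), as were 62.2% of the 222 assays, while 1.35% were lower. This fit, here and after median centring, took the 10 sorted samples as independent. Stellate and non-stellate samples of the same number share a biological replicate, so its p values may overstate the replication. The log2 level, tissue minus sorted, was higher by 5.27 ± 1.39 (SE) for miR-27a (adjusted p = 0.00519 in limma), 5.13 ± 0.93 for miR-27b (0.000475), 4.70 ± 1.28 for miR-23b (0.00615) and 2.55 ± 0.59 for miR-24 (0.0023). The median over all tested assays was 3.02, so miR-27a, miR-27b and miR-23b stood above it and miR-24 below it. Without tissue replicate 1 the calls of miR-27a (5.08, adjusted p = 0.0541 in limma) and miR-23b (4.62, adjusted p = 0.0565 in limma) were lost.

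After median centring, which takes out the shift shared by all assays, 23.9% of assays were higher and 25.2% lower in tissue, and the median difference was 0.03. On this scale miR-27b was the single member called, at 2.14 ± 0.61 (adjusted p = 0.0136 in limma). Its values, as Ct minus the sample median, were 0.30 and 0.33 in tissue and 1.36 to 4.33 in sorted samples. With only 1 of the tissue samples in the fit its difference was 2.13 or 2.16, and the adjusted p rose to 0.0968 and 0.0881 (limma). miR-27a stood at 2.28 ± 1.53 (adjusted p = 0.238 in limma) and miR-23b at 1.71 ± 1.32 (adjusted p = 0.301 in limma). Both fits include the undetermined wells of non-stellate 5 as 40. With undetermined wells as missing values, miR-27a was called at 1.61 (adjusted p = 0.0452 in limma) and miR-23b was not, at 1.16 (adjusted p = 0.142 in limma). That pairing of missing wells with median centring was added after seeing the data. miR-24 was at -0.44 ± 0.32 (adjusted p = 0.273 in limma), opposite in sign to its U6-scaled value.

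**Figure D4:**
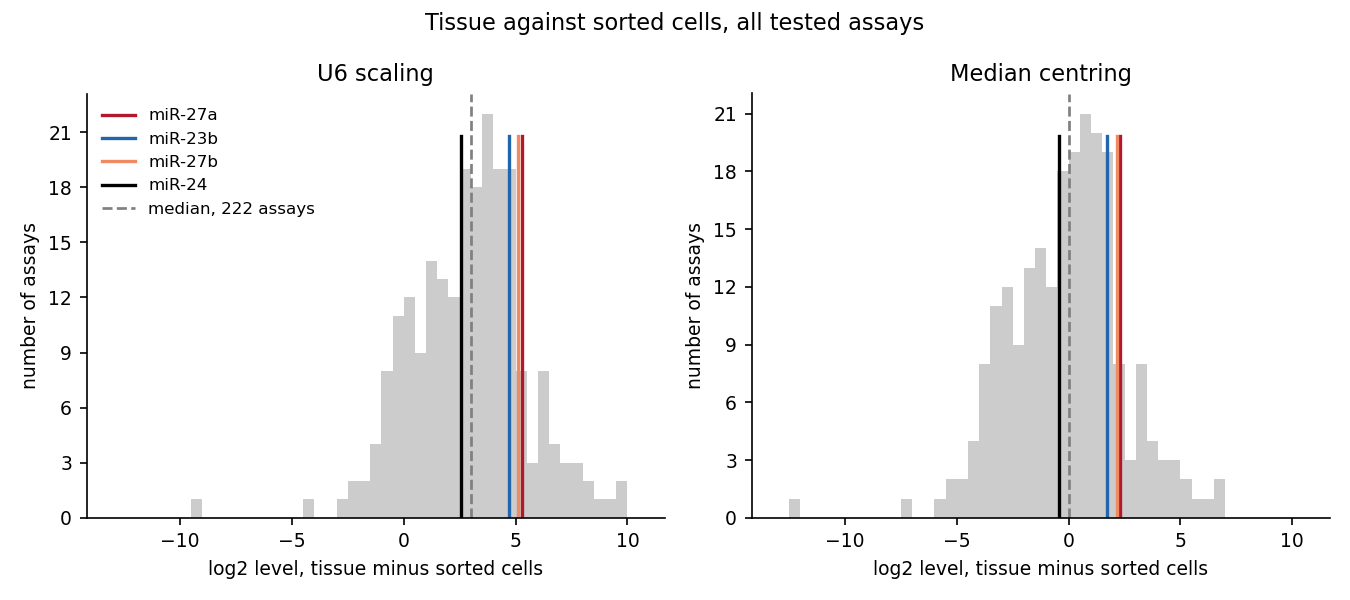
Number of the 222 tested assays (vertical axis) by log2 level, tissue minus sorted cells (horizontal axis), after U6 scaling and after median centring, with coloured lines for the 4 tested members and a dashed line for the median of all assays. miR-27a, miR-27b and miR-23b lie to the right of the median (3.02 and 0.03) and miR-24 to its left. Median centring moves every assay by the same amount, so these positions could not differ between the scalings.

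Marker lists were also read in this comparison, against 62.2% of all assays higher in tissue after U6 scaling and 23.9% after median centring. All 4 vascular markers (miR-126-3p, miR-126-5p, miR-143 and miR-145) were higher in tissue after U6 scaling, with a median of 6.06, and 2 of them were higher after median centring, with a median of 3.07. Their summed level, as log2 relative to the sample median, was 1.25 to 4.42 in stellate, 1.17 to 2.74 in non-stellate and 4.58 to 4.76 in tissue samples. Of the 6 blood and microglia markers, 4 were tested, and all 4 were higher in tissue after U6 scaling (median 3.99) and 1 after median centring (median 1.00, with miR-223 at -0.21). Their summed level was 2.09 to 5.24, 0.78 to 2.41 and 3.67 to 3.74 in the same groups, and miR-451 was undetermined in all sorted samples. All 5 neuronal markers were higher in tissue after U6 scaling and 2 after median centring. The part of these cells in the tissue differences of the members was not tested.

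Because the clusters are known from blood vessel growth, 15 other miRNAs linked with that process were listed, 14 of which were on the card, all tested. Between stellate and non-stellate cells none was called, with a median of 0.24 after U6 scaling (0.46 over all assays). In tissue, 8 of 14 were higher and 0 lower after U6 scaling, with a median of 2.38 beside 3.02 over all assays, of which 62.2% were higher. After median centring 5 were higher and 6 lower, with a median of -0.61, beside 23.9% higher and 25.2% lower over all assays. The ends of the list were miR-126-5p, an endothelial miRNA, at 3.79 (adjusted p = 0.00523 in limma), and miR-92a, a member of the miR-17 cluster, at -4.09 (adjusted p = 8.93e-05 in limma). The tested members of the miR-23, miR-27 and miR-24 clusters ran from -0.44 to 2.28 on this scale. Whether they resemble the list was not tested.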

How the data were processed

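The authors deposited raw Ct values, a log2 scale, from TaqMan rodent card A after multiplex reverse transcription and pre-amplification, and a normalized log2 table, which equals Ct minus the mean of the 4 U6 wells (largest difference 7.1e-15). The deposited fold-change and limma tables hold the authors' own comparisons and were not used. No molecule count exists, so the number of determined assays, U6 Ct and median Ct stand in for depth.

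Assays undetermined (Ct 40) in at most 3 of 10 sorted samples were tested (222) by lmFit and eBayes of limma (version 3.58.1, R version 4.3.3), with two-sided p values adjusted by Benjamini-Hochberg and a threshold of 0.05, without a block, since the methods of the study state none. Undetermined wells entered as 40. The fit was tested on simulated data. Groups came from titles and fluorescence. The members and lists were chosen with earlier results of these data known. All members were named, with the 3 assays nearest to each in within-sample Ct difference, and the highest and lowest of the blood vessel list. The numbers of stellate and non-stellate samples mark shared biological replicates per the labels, and deviations from group means correlated at 0.331, 0.119, 0.256, 0.155 and 0.0743 within pairs 1 to 5. The tissue samples differed by an SD of 0.389 over 230 assays, less than 0.518 between U6 wells. They were counted as 2 because the labels give 2 biological replicates. Alternatives were other scalings and reference RNAs, other treatments of undetermined wells, other filters, the replicate block and leaving out each sample, or non-stellate 3 and 5 together.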

Additional observations from a re-analysis of the deposited data

Results flagged for a closer look

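miR-27a in non-stellate 5 stood far from the rest of its group, since its U6-scaled Ct was 19.8 and the other 4 samples had 13.1 to 14.3. The value comes from an undetermined well given as 40. Dixon's criterion was applied to 16 sets of member values, those of stellate and non-stellate cells under U6 scaling and under median centring. Only this set held a sample that stood apart, where chance gives about 0.8. The same group was not flagged after median centring, and both scalings of a group are not independent. Non-stellate 5 had the fewest determined assays of the sorted samples (203).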

How the results depend on the processing

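No assay differed between stellate and non-stellate cells under any alternative run (0 in each, limma), the replicate block included (0, with 26 at an unadjusted p under 0.05 against 16 without the block, and 48 for the block with median centring). The block changed no call of a member. For miR-27a the difference was -0.02 with undetermined wells as missing and -0.52 with median centring as well, a pairing of choices added after seeing the data, and ran from -0.02 to 1.65 with a sample left out. For miR-27b it was -0.17 under median centring (with the block or with missing wells too), -0.10 with global mean scaling, -0.09 without non-stellate 3 and 5, and -0.16 to 0.84 with a sample left out. Assays higher in tissue numbered 138, but 53 with median centring and 63 with the global mean or with missing wells and median centring. Assays lower in tissue numbered 3, but 56 with median centring, 49 with the global mean, 69 with missing wells and median centring, 7 without the filter, 1 with the tissue mean as 1 sample, and 1 to 4 with a sample left out. miR-24 in tissue was -0.44 with median centring, missing wells included, and -0.12 with the global mean. The cause was not tested. Over all alternatives, the members had 98 values between stellate and non-stellate cells, of which 87 kept their direction and 11 turned. Of 82 values for tissue, 72 kept direction and call, 7 lost the call and 3 turned direction. The median-centred fits without each sample in turn were also added after seeing the data. The number of samples and the undetermined wells limit precision.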
